A study of Homo sapiens with 6 samples.

Results

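Transcripts of 10 monocyte and macrophage surface markers (CD33, CD36, CD68, ITGAM, ITGAX, FCGR1A, FCGR2A, MRC1, CD163 and THBD) were followed in Mono-Mac-6, a monocyte-like cell line from a human acute myeloid leukaemia in which MLL is fused to AF9. The markers were chosen by name, with earlier results of these data known. All 10 had a row among the 18806 gene symbols of the deposited expression table. Every library came from a Cas9 single clone of this line that had received, by lentivirus, either the control guide RNA sgNS or a guide against METTL1, sgMETTL1.3 or sgMETTL1.6. METTL1 is a methyltransferase that modifies guanosine in tRNAs at the N7 position. Every group was kept under blasticidin at 10 µg/ml and under hygromycin B at 200 µg/ml, and cells were collected between 8 and 10 days after transduction. Poly(A)+ RNA was sequenced in 2 libraries per group, 6 in all. Because all cells descend from 1 clone of 1 line, the groups stand for that clone, and the labels do not say whether replicates were separate cultures. The p-values therefore rest on the spread of these 6 libraries alone, part or all of which may be technical.

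These markers belong to different branches of monocyte function. FCGR1A (CD64) and FCGR2A (CD32A) are activating receptors for the constant part of IgG and start phagocytosis of antibody-coated particles. ITGAM (CD11b) and ITGAX (CD11c) are integrin alpha chains that pair with the shared beta chain ITGB2 to bind complement-coated targets and the vessel wall. CD36, CD68, MRC1 (CD206) and CD163 are scavenger or endocytic receptors, CD33 is a sialic acid-binding inhibitory receptor and a drug target in acute myeloid leukaemia, and THBD (thrombomodulin) turns thrombin from a clotting enzyme into an activator of protein C.

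Values are TPM, transcript levels per length with a fixed sum in every library. They hold no read depth, so depth is unknown and the counting error of each value cannot be worked out. Differences were tested with limma on log2(TPM + 1), a scale that understates the change of low genes, over the 10911 genes that averaged 1 TPM or more. A gene was called at a Benjamini-Hochberg adjusted p under 0.05 over all of these genes. Bulk RNA cannot tell fewer cells of a type from less RNA per cell.

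The targeted transcript, METTL1, stood at 15.38 and 13.89 TPM in the sgNS libraries, 18.29 and 16.56 TPM in those labelled sgMETTL1.3, and 11.15 and 11.69 TPM in those labelled sgMETTL1.6. It was thus higher than control in the libraries labelled sgMETTL1.3 (log2 change 0.24, limma adjusted p = 0.011) and lower in those labelled sgMETTL1.6 (log2 change -0.33, adjusted p = 0.0017). A Cas9 cut need not lower the mRNA. The values used here hold no measure of the cut or of the protein, and every direction below is that of the libraries as labelled. Of 10 marker genes for a monocytic line with this fusion, 7 had a mean of at least 1 TPM, led by lysozyme (LYZ), which held from 9206 to 11419 TPM in single libraries. CD14, CSF1R and FCN1, which mark mature blood monocytes, did not reach 1 TPM in any library. The 10 genes summed to 11423 to 11992 TPM in the sgNS libraries, 11207 to 11298 TPM with sgMETTL1.3 and 9653 to 10065 TPM with sgMETTL1.6, most of it LYZ. Over both guides 6 of the 7 tested were called lower (LYZ, CTSS, TYROBP, FCER1G, CYBB and HOXA9) and 0 higher, with a median log2 change of -0.31. Over all tested genes 26.8% were called lower and 32.6% higher. With sgMETTL1.3, 4 were called lower, beside 24.2% of all tested genes. LYZ (log2 -0.04, adjusted p = 0.18) and CYBB (log2 -0.11, adjusted p = 0.089) were not called with that guide. With sgMETTL1.6, 6 were called lower, beside 25.3% of all tested genes. LYZ (log2 -0.24, adjusted p = 1.1e-05) and CYBB (log2 -0.50, adjusted p = 6.7e-06) were among these 6. Of the lists for other cell types, the one for T and NK cells summed to 116 to 126 TPM in the libraries with sgNS, to 89.9 to 95.9 TPM in those labelled sgMETTL1.3 and to 94.0 to 98.6 TPM in those labelled sgMETTL1.6. Only NKG7 and CD8A of its 12 measured genes had a mean of at least 1 TPM, both were called lower (log2 -0.34 and -0.55), and CD2, CD3D, CD3E, CD3G and KLRD1 were listed at 0 in all 6 libraries. The fibroblast and epithelial list, in which KRT18 alone of 10 genes had a mean of at least 1 TPM, summed to 17.2 to 17.3, 13.1 to 13.7 and 13.4 to 13.5 TPM in sgNS, sgMETTL1.3 and sgMETTL1.6. The platelet list summed to 4.08 to 4.23, 3.03 to 3.44 and 2.50 to 2.82 TPM in the same order, with PF4, PPBP and SELP listed at 0. GP1BA alone of this list had a mean of at least 1 TPM (2.35). It was called lower over both guides (log2 -0.24, adjusted p = 0.043) but not with sgMETTL1.3 alone (-0.10, adjusted p = 0.43). Erythroid genes summed to 8.62 to 9.85 TPM across all groups, with HBB, HBG1 and GYPB among those at 0. EPOR, with a mean of 7.15 TPM, held most of this sum and was not called over both guides (log2 -0.18, adjusted p = 0.081). HBA1, a globin gene with a near-identical copy, HBA2, was called higher (log2 1.05, adjusted p = 0.0023), at 1.34 and 0 TPM in the controls and 1.62 to 2.67 TPM in the guide libraries. HBA2 was listed at 1.44 TPM in the control library where HBA1 was at 0, and at 0 in all others. The split of reads between these copies is uncertain, and its part in the call was not tested. B cell and endothelial genes summed to at most 2.98 and 0.92 TPM. The part of these genes in the marker results was not tested.

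Sequence just upstream of the starts is shown for 4 markers, so that 3 of the 5 markers that fell, FCGR1A, FCGR2A and ITGAM, can be set beside CD33, which did not pass the test in any comparison. Each line gives the 100 bases from 130 to 31 bases before the start in RefSeq (GRCh38.p14), 5′ to 3′ on the gene's strand, which is the plus strand for all 4. Capitals mark 2 motifs on either strand: GAGGAA, a core recognised by the myeloid factor PU.1 (read as TTCCTC where it lies on the minus strand), and the interferon-gamma activated site, TTCNNNGAA.
FCGR1A (chr1:149782564-149782663): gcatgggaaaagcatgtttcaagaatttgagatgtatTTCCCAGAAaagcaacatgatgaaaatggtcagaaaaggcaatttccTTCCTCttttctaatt
FCGR2A (chr1:161505327-161505426): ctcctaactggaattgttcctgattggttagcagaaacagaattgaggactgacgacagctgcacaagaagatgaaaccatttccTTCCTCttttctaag
ITGAM (chr16:31259845-31259944): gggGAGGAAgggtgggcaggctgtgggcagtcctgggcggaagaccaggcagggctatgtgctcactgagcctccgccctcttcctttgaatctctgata
CD33 (chr19:51224950-51225049): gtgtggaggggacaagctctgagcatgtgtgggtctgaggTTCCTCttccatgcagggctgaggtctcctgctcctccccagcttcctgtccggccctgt

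GAGGAA was present in all 4 windows, in those of the markers that fell and in that of CD33 alike, against 9.65% of the 35116 promoter windows of the same length. FCGR1A and FCGR2A shared a run of 20 letters around it, atttccttcctcttttctaa, which begins 52 and 51 bases before their starts. The TTCNNNGAA motif was found only in the FCGR1A window, beginning 93 bases before the start, against 2.5% of all windows. Of the other 7 motifs searched on both strands, the Sp1 motif GGGCGG (29.7% of all windows) and the KLF motif CCACCC (15.6%) were each found only in the ITGAM window. The TATA box TATAAA (3.13% of all windows), the C/EBP motif TTGCNNAA (3.35%), the AP-1 motif TGANTCA (3.0%), the cyclic AMP response element TGACGTCA (0.968%) and the composite ATF4 and C/EBP motif TGATGCAA (0.382%) were in none of the 4. The motifs were settled with the sequences in view and do not overlap each other in these windows. A match describes the letters and is not a bound site. RefSeq starts were matched for 7 of the 10 markers: the CD68 and CD163 windows overlap annotated exons, CD36 has 6 starts, and ITGAX, MRC1 and THBD were not matched.

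Across the markers, the Fc receptors, the integrin chains and CD68 were lower with both METTL1 guides, THBD was higher, CD36 was higher with sgMETTL1.3, and CD33 stayed within its replicate spread. MRC1 lay below 1 TPM in every library and CD163 below 1 TPM in all 4 guide libraries. Their means over the 6 libraries, 0.015 and 0.853 TPM, left both out of the test, so 8 of the 10 were tested. Over both guides 7 of these 8 were called, 5 lower and 2 higher, beside 59.4% of all tested genes called, 26.8% lower and 32.6% higher. The 8 markers had a median log2 change of -0.35, beside 0.02 over all tested genes. In 6 of the 10 markers (the 5 called lower and CD163) all 4 guide libraries lay below both controls, and in THBD alone all 4 lay above. Over all tested genes 60.2% had no overlap, 27.3% below and 32.9% above.

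**Figure D1:**
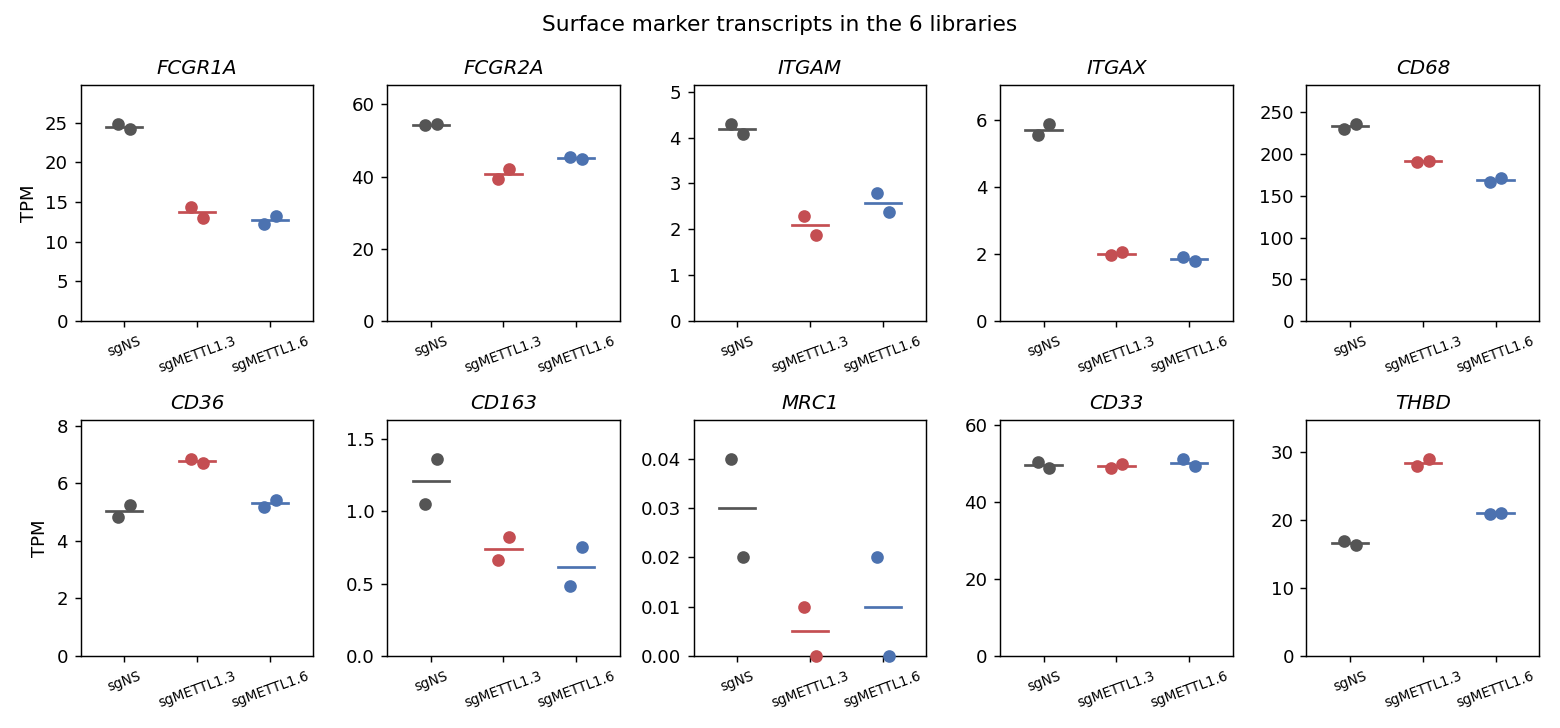
TPM of each marker (y axis, from 0, its own scale in each panel) in the sgNS, sgMETTL1.3 and sgMETTL1.6 libraries; points are single libraries and lines are group means (n = 2). ITGAX drops from 5.54 and 5.86 TPM to between 1.79 and 2.05 TPM, THBD climbs from 16.27 and 16.89 TPM to at least 20.88 TPM, and CD33 stays between 48.77 and 51.17 TPM.

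Among the Fc receptors, FCGR1A (ENSG00000150337.13, chromosome 1, 149782671 to 149792518, plus strand, GRCh38), the high-affinity IgG receptor, was listed at 24.81 and 24.21 TPM in the sgNS libraries, 14.45 and 13.01 TPM with sgMETTL1.3, and 12.28 and 13.26 TPM with sgMETTL1.6. Every guide library lay below both controls, at group means of 56.0% and 52.1% of the control mean, while the guides overlapped each other. FCGR1A was lower by a log2 change of -0.84 ± 0.0573 over both guides (SE, limma adjusted p = 6.1e-08), and 2.0% of tested genes had a lower change. FCGR2A (ENSG00000143226.13, chromosome 1, 161505430 to 161524013, plus strand), the lower-affinity receptor whose own tail carries the activating motif, held 54.21 and 54.45 TPM in the controls, 39.35 and 42.12 TPM with sgMETTL1.3, and 45.54 and 44.82 TPM with sgMETTL1.6. All guide libraries were again below the controls and the sgMETTL1.3 libraries were the lowest. Its log2 change was -0.33 ± 0.0412 over both guides (SE, adjusted p = 1.5e-05), a smaller step than that of FCGR1A.

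The TPM ratio of FCGR1A to FCGR2A was 0.458 and 0.445 in the control libraries, 0.367 and 0.309 with sgMETTL1.3, and 0.270 and 0.296 with sgMETTL1.6, so the balance between the receptors was lower in each guide library. Both genes have near-identical relatives. Of the 50-base stretches in the longest coding transcript of FCGR1A (GENCODE 29), 46.6% also occur in FCGR1B or FCGR1CP, and for FCGR2A 26.2% occur in other genes, mainly FCGR2C and FCGR2B. The authors' counting divides such reads by a model, so the split within each family is uncertain. The relatives were lower too: FCGR1B went from 3.90 and 2.74 TPM to 0.83 to 1.09 TPM across the guide libraries (log2 -1.11, adjusted p = 3.2e-06). FCGR2C, under the level for testing on average, held 1.46 and 1.51 TPM in the controls and 0.28 to 0.51 TPM in the guide libraries. FCGR2B, the inhibitory member of the family, went from 5.79 and 5.42 TPM to 1.35 and 1.10 TPM with sgMETTL1.3 and 2.25 and 2.15 TPM with sgMETTL1.6 (log2 -1.31, adjusted p = 4.6e-08). Relative to FCGR2A it stood at 0.107 and 0.0995 in the controls and between 0.0261 and 0.0494 in the guide libraries. FCGR3A was listed at 0.03 TPM in 1 control library and at 0 in the other 5, and FCGR3B at 0 in all 6.

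FCER1G, the signalling gamma chain that FCGR1A needs at the surface, fell as well, from 263.08 and 278.29 TPM to 206.83 and 210.72 TPM with sgMETTL1.3 and 183.62 and 189.15 TPM with sgMETTL1.6 (log2 -0.45, adjusted p = 8.9e-08). Among the 18 genes of the Fc receptor and proximal signalling list, which includes FCGR1A and FCGR2A, 15 were tested. Of these 11 were lower and the phospholipase PLCG2 alone was higher (0.17), beside 26.8% lower and 32.6% higher over all tested genes. The list had a median log2 change of -0.40. PLCG2 was not called with sgMETTL1.6 (0.08, adjusted p = 0.27), and without sgNS replicate 1 the list had 0 higher and 9 lower. The low-affinity IgE receptor FCER2 (log2 -1.20) was among the genes that fell.

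**Figure D2:**
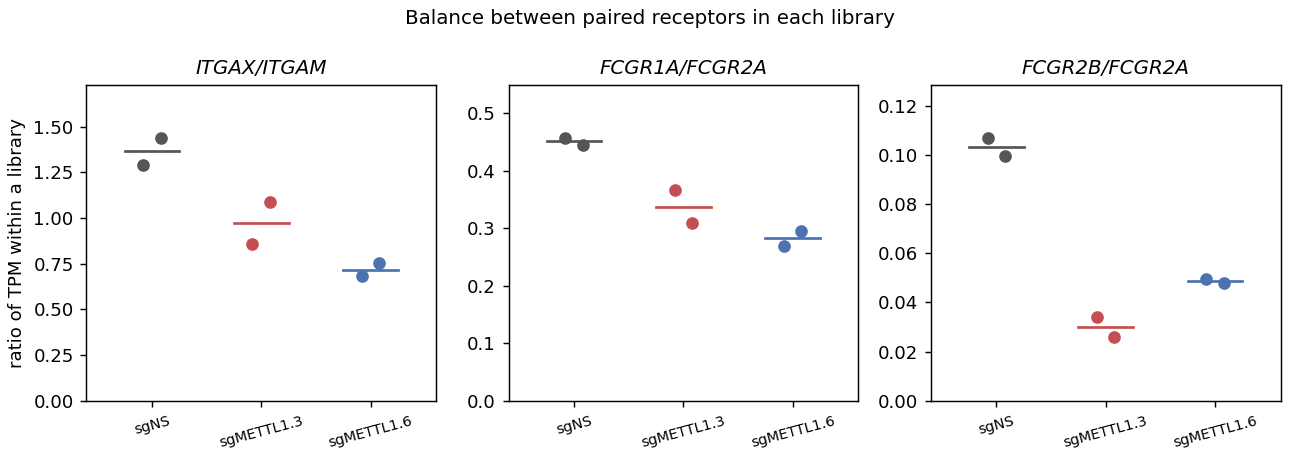
Ratio of TPM within each library (y axis, from 0) for ITGAX to ITGAM, FCGR1A to FCGR2A and FCGR2B to FCGR2A, by group; points are single libraries and lines are group means (n = 2). In each panel both control libraries lie above all 4 guide libraries; for ITGAX to ITGAM they stand at 1.29 and 1.44 against 0.681 to 1.09.

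Both integrin alpha chains were lower, and ITGAX had the lowest log2 change of the 8 tested markers. ITGAX (ENSG00000140678.16, chromosome 16, 31355134 to 31382997, plus strand), which forms complement receptor 4 with ITGB2, held 5.54 and 5.86 TPM in the sgNS libraries, 1.97 and 2.05 TPM with sgMETTL1.3, and 1.90 and 1.79 TPM with sgMETTL1.6. The guide means were 35.3% and 32.4% of the control mean, and no guide library came near a control. The log2 change over both guides was -1.19 ± 0.0802 (SE, limma adjusted p = 5.4e-08), and 97 of the 10911 tested genes had a lower one. ITGAM (ENSG00000169896.17, chromosome 16, 31259967 to 31332892, plus strand), the alpha chain of complement receptor 3 and a neighbour of ITGAX, held 4.29 and 4.07 TPM in the controls, 2.29 and 1.88 TPM with sgMETTL1.3, and 2.79 and 2.38 TPM with sgMETTL1.6. All 4 guide libraries lay below both controls, and its log2 change was -0.64 ± 0.0902 (SE, adjusted p = 4.7e-05). At these low levels the log2 changes depend on the pseudocount: with 5 in place of 1 they were -0.63 for ITGAX and -0.33 for ITGAM, both still called.

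In the control libraries ITGAX exceeded ITGAM, at TPM ratios of 1.29 and 1.44. With sgMETTL1.3 the ratio was 0.860 and 1.09, and with sgMETTL1.6 it was 0.681 and 0.752. The order of the chains was thus reversed with sgMETTL1.6, whereas with sgMETTL1.3 their libraries overlapped. The beta chain ITGB2 is far more abundant and fell less, from 1132.78 and 1174.45 TPM to 880.86 and 885.62 TPM with sgMETTL1.3 and 828.08 and 848.17 TPM with sgMETTL1.6 (log2 -0.42, adjusted p = 1.4e-08). Of the 16 genes for leukocyte integrins and their activators, these 3 included, 15 were tested. Of these 9 were lower and 2 were higher, beside 26.8% lower and 32.6% higher over all tested genes. The list had a median log2 change of -0.21. Of the 2 higher genes, RASGRP2 (0.11, adjusted p = 0.035) was called with neither guide alone. With no filter on low values, with median-ratio scaling or without the variance trend, 1 gene was higher and 9 were lower. Next to the receptors for complement, the fibronectin receptor chain ITGB1 (-0.27), the small GTPase RAP1B (-0.24) and the integrin activator FERMT3 (-0.21) were lower, while the alpha chain ITGA5 was higher (0.22). FERMT3 was not called with sgMETTL1.3 alone (-0.09, adjusted p = 0.058).

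The scavenger and endocytic receptors did not move as 1 group. CD68 (ENSG00000129226.13, chromosome 17, 7579467 to 7582113, plus strand), a glycoprotein of late endosomes and lysosomes that serves as a pan-macrophage marker, was the most abundant of the 10 markers. It held 230.69 and 235.74 TPM with sgNS, 190.41 and 192.36 TPM with sgMETTL1.3, and 166.32 and 171.63 TPM with sgMETTL1.6. The groups did not overlap, with the controls highest and sgMETTL1.6 lowest, at 82.1% and 72.5% of the control mean. CD68 was lower over both guides by a log2 change of -0.37 ± 0.0299 (SE, limma adjusted p = 3.0e-07). Of its transcript's 50-base stretches, 92.6% also lie in AC016876.2. This annotated processed transcript overlaps CD68 on the same strand and has no row in the table used. Reads of the shared stretches could come from either, and how they were counted is not known.

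CD36 (ENSG00000135218.18, chromosome 7, 80369575 to 80679277, plus strand), a receptor for oxidised lipoproteins and long-chain fatty acids, went the other way. Its values were 4.81 and 5.25 TPM in the controls, 6.84 and 6.69 TPM with sgMETTL1.3, and 5.18 and 5.43 TPM with sgMETTL1.6. Both sgMETTL1.3 libraries exceeded every other library, and those of sgMETTL1.6 overlapped the controls. CD36 rose with sgMETTL1.3 (log2 0.37, 95% interval 0.19 to 0.54, adjusted p = 0.0015), and with sgMETTL1.6 the log2 change was 0.07 (-0.11 to 0.24, adjusted p = 0.52). The call over both guides (log2 0.22, adjusted p = 0.016) was lost without sgNS replicate 1 (log2 0.16, adjusted p = 0.16), and the adjusted p ranged from 0.0067 to 0.16 over the alternatives. With a pseudocount of 5 the log2 change was 0.14.

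CD163 (ENSG00000177575.12, chromosome 12, 7470813 to 7503893, minus strand), which clears haemoglobin bound to haptoglobin, was low throughout, with 1.05 and 1.36 TPM in the controls, 0.66 and 0.82 TPM with sgMETTL1.3, and 0.48 and 0.75 TPM with sgMETTL1.6. All guide libraries were below both controls, but its mean was too low for the main test. With no filter on low values, where 15671 genes were tested, its log2 change over both guides was -0.40 (95% interval -0.63 to -0.16, adjusted p = 0.023), with sgMETTL1.3 alone -0.34 (adjusted p = 0.06) and with sgMETTL1.6 alone -0.45 (adjusted p = 0.03). Rescaling TPM without ribosomal protein genes brought CD163 into the test, with a log2 change over both guides of -0.46 (adjusted p = 0.0098). Permuting CD163 over the libraries, 4 with a guide and 2 controls, gave an exact two-sided p = 0.133, the smallest that 15 arrangements allow. MRC1 (ENSG00000260314.2, chromosome 10, 17809344 to 17911170, plus strand), the mannose receptor of tissue macrophages, was listed at 0.04 and 0.02 TPM with sgNS, 0.01 and 0 TPM with sgMETTL1.3, and 0.02 and 0 TPM with sgMETTL1.6. These values are too low to compare.

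Of the 19 scavenger receptor genes on the list, which holds CD36, CD68, CD163 and MRC1, 10 were tested. Of these 5 were higher and 3 lower, beside 32.6% higher and 26.8% lower over all tested genes. The list had a median log2 change of 0.02, the same as over all tested genes. Without sgNS replicate 1 only 4 were called, 1 higher and 3 lower. SCARB1, the high-density lipoprotein receptor of the CD36 family, rose from 51.70 and 53.46 TPM to 75.49 to 82.98 TPM in the guide libraries (log2 0.58, adjusted p = 2.7e-08). LRP1, a large endocytic receptor, fell from 12.27 and 13.16 TPM to 5.27 to 6.01 TPM (log2 -1.05, adjusted p = 1.7e-08). SCARF1 (0.26) was higher, though not called without sgNS replicate 1 or with sgMETTL1.3 alone (0.11, adjusted p = 0.26 for that guide). LAMP1, a lysosomal relative of CD68, was higher by 0.09. Its call was lost without sgNS replicate 1, without the variance trend (adjusted p = 0.078) or without ribosomal protein genes (adjusted p = 0.061). LAMP1 was not called with sgMETTL1.6 alone (0.05, adjusted p = 0.18).

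CD33 (ENSG00000105383.14, chromosome 19, 51225064 to 51243860, plus strand) held 50.51 and 48.77 TPM with sgNS, 48.97 and 49.86 TPM with sgMETTL1.3, and 51.17 and 49.26 TPM with sgMETTL1.6. The 3 groups overlapped, and the group means differed by less than the spread between the control replicates. Its log2 change over both guides was 0.00 (95% interval -0.08 to 0.09, limma adjusted p = 0.92). CD33 signals through the phosphatases PTPN6 and PTPN11, for which the log2 changes were -0.04 (adjusted p = 0.44) and -0.05 (adjusted p = 0.32). Of the 23 genes on the list of Siglecs and other inhibitory receptors 19 were in the table and 7 were tested, with 0 higher and 4 lower, beside 59.4% of all tested genes called, and a median log2 change of -0.14. CD33 was the only Siglec with a mean of at least 1 TPM. The 4 that fell were the inhibitory receptors PILRA (-0.77), CD300A (-0.74), LAIR1 (-0.26) and SIRPA (-0.14), of which SIRPA was not called with sgMETTL1.3 alone (0.00, adjusted p = 0.97).

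THBD (ENSG00000178726.6, chromosome 20, 23045633 to 23049741, minus strand) was listed at 16.89 and 16.27 TPM in the sgNS libraries, 27.89 and 28.94 TPM with sgMETTL1.3, and 20.88 and 21.04 TPM with sgMETTL1.6. The groups did not overlap: the sgMETTL1.3 libraries were highest, at 171% of the control mean, and those of sgMETTL1.6 stood between, at 126%. THBD rose over both guides by a log2 change of 0.53 ± 0.0469 (SE, limma adjusted p = 7.2e-07), and 2.26% of tested genes had a higher change. On the list of 19 coagulation and fibrinolysis genes, THBD included, 10 were tested, 4 were higher and 3 lower, near the 32.6% and 26.8% of all tested genes, with a median log2 change of 0.02. Tissue factor (F3), which starts clotting, was higher too, going from 13.16 and 13.97 TPM to 20.58 and 18.89 TPM with sgMETTL1.3 and 27.18 and 24.37 TPM with sgMETTL1.6 (log2 0.69, adjusted p = 4.8e-07). The plasminogen activator PLAU (0.37) and ANXA2 (0.43), a cell-surface site of plasmin formation, were higher, and its partner S100A10 was lower (-0.22). PROCR, the receptor that presents protein C to the thrombin-thrombomodulin complex, held 1.04 and 1.35 TPM in the controls and 0.47 to 1.18 TPM in the guide libraries, under the level for testing on average.

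**Figure D3:**
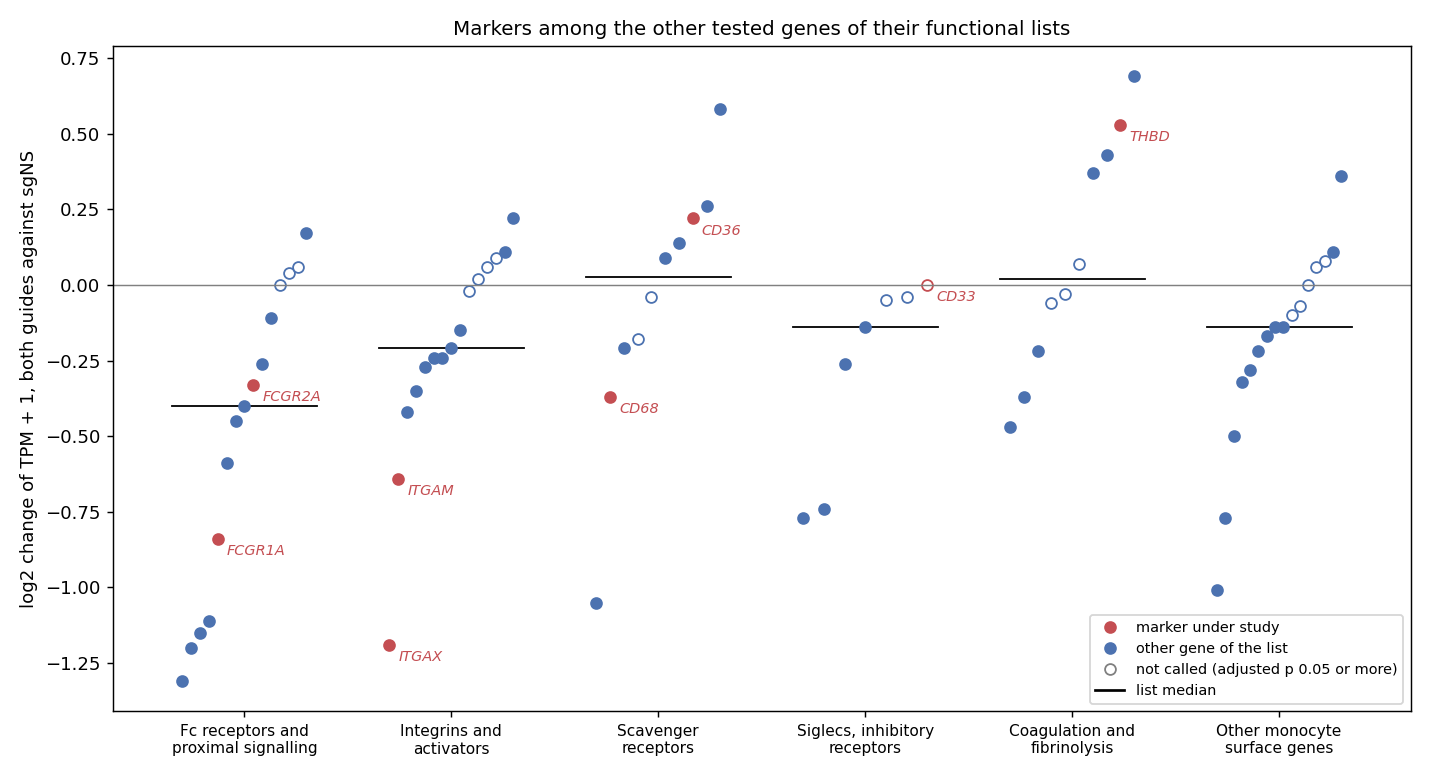
Log2 change of TPM + 1 over both guides against sgNS (y axis) for each tested gene of 6 functional lists (x axis, genes of a list in order of their change); red points are the markers, blue points the other genes, open points were not called and black lines are list medians. ITGAX, at -1.19, lies lowest in the integrin list, FCGR1A and FCGR2A lie among falling Fc receptor genes, and THBD, at 0.53, lies second only to F3 at 0.69 in the coagulation list.

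Other surface genes of monocytes and macrophages were read for comparison. Of 32 such genes 31 were in the table and 16 were tested. Of these 9 were lower and 2 were higher, beside 26.8% lower and 32.6% higher over all tested genes. The list had a median log2 change of -0.14. Without sgNS replicate 1, 7 were called, 6 lower and 1 higher. The costimulatory ligand CD86 fell from 12.69 TPM in each control to 5.34 to 6.34 TPM in the guide libraries (log2 -1.01, adjusted p = 2.7e-08). The lectin-like receptor CLEC5A (-0.77) and the hyaluronan receptor CD44 (-0.22) were lower as well, and CD93 was higher (0.36, from 165.08 and 167.71 TPM to 206.12 to 220.50 TPM).

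Set side by side, the guides gave the following values against the same sgNS libraries, which both comparisons share. With sgMETTL1.3, 7 of the 8 tested markers were called, 5 lower and 2 higher, beside 58.5% of all tested genes, 24.2% lower and 34.3% higher. With sgMETTL1.6, 6 were called, 5 lower and 1 higher, beside 51.0%, 25.3% lower and 25.7% higher. The log2 changes with sgMETTL1.3 and sgMETTL1.6 were -1.15 and -1.24 for ITGAX, -0.79 and -0.89 for FCGR1A, -0.75 and -0.53 for ITGAM, -0.28 and -0.46 for CD68, -0.41 and -0.26 for FCGR2A, and 0.74 and 0.32 for THBD.

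**Figure D4:**
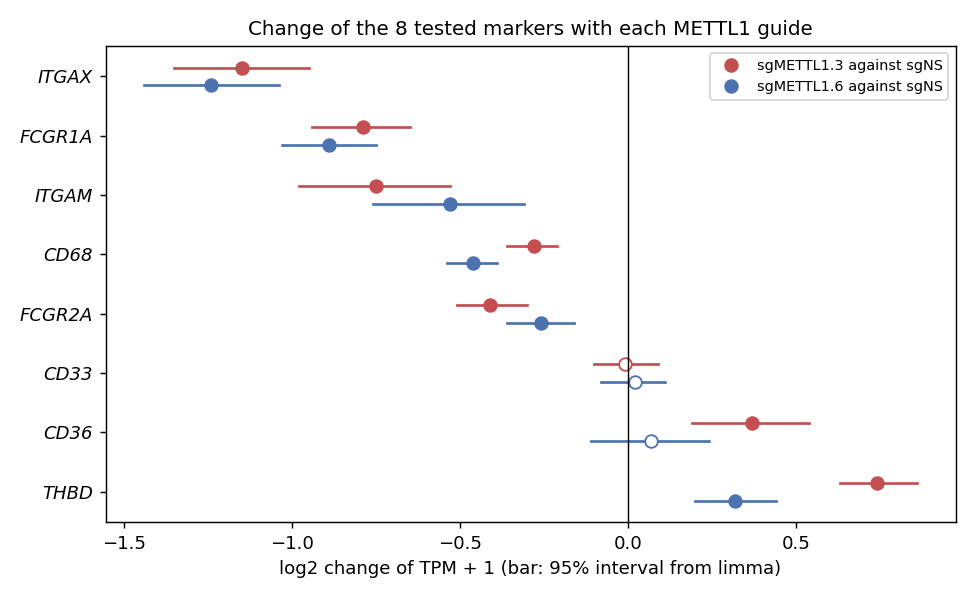
Log2 change of TPM + 1 (x axis) of the 8 tested markers with each guide against sgNS; points are limma estimates, bars their 95% intervals, and open points were not called. The intervals of ITGAX reach no higher than -0.95, those of CD33 span 0 for both guides, and those of THBD, 0.63 to 0.86 and 0.20 to 0.44, lie above 0 and apart from each other.

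The guides were then compared with each other. Between the libraries labelled sgMETTL1.6 and sgMETTL1.3, 4 of the 8 markers were called, beside 23.0% of all tested genes, 3 lower with sgMETTL1.6 (15.8% of all) and 1 higher (7.23%). THBD was lower with sgMETTL1.6 by a log2 difference of -0.42 ± 0.0541 (SE, limma adjusted p = 0.00024), a difference that 1.43% of tested genes fell below. CD68 was lower by -0.18 (adjusted p = 0.0037) and CD36 by -0.30 (adjusted p = 0.017), and FCGR2A was higher by 0.15 (adjusted p = 0.042). The CD36 call did not hold with no filter on low values, without either sgMETTL1.3 library or without sgMETTL1.6 replicate 1 (adjusted p from 0.065 to 0.089). The FCGR2A call was lost with no filter, without the variance trend and without any 1 library except sgMETTL1.3 replicate 2 (adjusted p from 0.063 to 0.28). For ITGAX (-0.08, 95% interval -0.28 to 0.12), FCGR1A (-0.10, -0.24 to 0.05), ITGAM (0.22, -0.01 to 0.44) and CD33 (0.02, -0.08 to 0.12) no difference between the guides was called.

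By level per length, CD68 led in every group. In the sgNS libraries it was followed by FCGR2A (mean 54.3 TPM), CD33 (49.6), FCGR1A (24.5), THBD (16.6), ITGAX (5.70), CD36 (5.03), ITGAM (4.18), CD163 (1.21) and MRC1 (0.03), with no overlap between neighbours. With either guide CD33 stood above FCGR2A, THBD above FCGR1A, and CD36 and ITGAM above ITGAX. Only ITGAM and ITGAX with sgMETTL1.3 (2.08 and 2.01 TPM) overlapped in this order. FCGR1A exceeded THBD in both controls, whereas THBD stood at 28.4 against 13.7 TPM with sgMETTL1.3 and at 21.0 against 12.8 TPM with sgMETTL1.6.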

How the data were processed

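The authors deposited TPM for 18806 gene symbols in 6 libraries. These TPM came from RSEM 1.2.31 on GRCh38, per the submitters' processing notes, and from a stranded mRNA kit, per the labels' protocols. Which aligner and annotation served is not given in the sources used here. Each of the 6 value columns carries a name that 1 sample's description gives; all 6 names also hold the letters EV, which the labels do not explain. For testing, log2(TPM + 1) entered limma 3.58.1 (R 4.3.3) in 1 model of 3 groups with empirical Bayes and a variance trend (3 residual and 9.84 prior degrees of freedom), after a filter of a mean of at least 1 TPM. The fit was tested on simulated data. Named beside the markers were METTL1, direct partners, up to 4 called genes of each related list by lowest adjusted p, and marker genes of other cell types; some genes that this rule names are not reported here. PLCG2, SIRPA, ITGA5, CD14, CSF1R, FCN1, monocytic line markers, the Fc receptor relatives and genes listed at 0 were singled out after their values were seen. So was RASGRP2. Markers and lists were chosen with earlier results of these data known. LILRB1 to LILRB4, TREM1, TRAC and IGHM are not analysed here. Positions are from GENCODE 29 on GRCh38 and upstream sequences from RefSeq. Alternatives were pseudocounts, filters, scalings, no variance trend, a replicate block and leaving out each library.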

Additional observations from a re-analysis of the deposited data

Results flagged for a closer look

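For 4 markers the effect of the guides differed in a direct test of sgMETTL1.6 against sgMETTL1.3. The log2 difference was -0.42 for THBD, -0.30 for CD36, -0.18 for CD68 and 0.15 for FCGR2A. The difference for THBD passed under every alternative run (adjusted p from 8.3e-05 to 0.014), as did that for CD68 (0.00069 to 0.043). Those for CD36 (0.012 to 0.089) and FCGR2A (0.019 to 0.28) did not. The METTL1 transcript itself was higher in the libraries labelled sgMETTL1.3 than in those labelled sgMETTL1.6, and the part of that difference in these values was not tested. With 2 libraries in a group, single libraries that stand apart could not be tested for.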

How the results depend on the processing

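Over the alternatives, 428 of 440 recomputed log2 changes of the 8 tested markers kept their direction or stayed uncalled and kept their side of the threshold, 12 lost their call and 0 turned while called. The lost calls were of CD36 (over both guides and between the guides) and of FCGR2A (between the guides), and the cause was not tested. Counts of called markers stayed within 1.5 times the main count except between the guides, where 4 became 2 with no filter on low values and ranged from 2 to 3 over the libraries left out, among which 2 was reached without sgMETTL1.3 replicate 1 or sgMETTL1.6 replicate 1. With a mean of at least 5 TPM, ITGAM and ITGAX were not tested. Where a library was left out, the lone sample of its group was assumed to vary like the other groups. The replicate number as a block left the counts at 7, 7, 6 and 4 (both guides, sgMETTL1.3, sgMETTL1.6, and between the guides) and changed no marker's call. The numbers were not taken as pairing the samples, since the labels name no block beyond a replicate number. The differences between replicates 1 and 2 correlated across genes at -0.00501 (sgNS with sgMETTL1.3), 0.207 (sgNS with sgMETTL1.6) and 0.145 (between the guides). These correlations do not settle whether the replicates were paired. TPM keeps no depth, which limits what can be said of MRC1 and CD163.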
